A study of Mus musculus with 20 samples.

Results

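The transcripts described here are those that long-read sequencing added to the mouse transcript catalogue of a heart injury study. They were chosen as every transcript of the deposited abundance table whose ID does not begin with the Ensembl prefix, and they number 23070 of 163740 transcripts, or 14.1%. The other 140670 carry Ensembl IDs. Abundance is in TPM, a length-adjusted measure of transcript number scaled so that each library sums to the same total.

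A gene can give several transcripts through alternative promoters, splicing and polyadenylation, and these can differ in the protein they encode or in their stability. Nanopore sequencing reads a cDNA from end to end, so that exons far apart are seen on 1 molecule, and transcripts whose exon structure is absent from the annotation can be listed. Short reads are then shared among all listed transcripts of similar sequence, so the abundance of one isoform depends on which others are in the list.

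The study took poly(A) RNA from mouse heart in 4 groups of 4 short-read libraries. The group MI (myocardial infarction) was sampled 72 h after surgery, and the group IR (ischemia-reperfusion) had 40 min of a step abbreviated LCA in the labels, which do not spell it out, followed by reperfusion, in which blood flow is restored, for 72 h. MI and its sham-operated controls (MISham) are labelled as infarct core with peripheral regions, and IR and its sham-operated controls (IRSham) as core only, so kind of injury and region sampled cannot be told apart. Strain, genotype, sex and age are not given in the sources used here, and nor is whether a library stands for 1 animal, so a p-value speaks only of variation among the libraries sequenced, which may be technical.

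The 23070 IDs all had one form, a pair of numbers followed by a name of the kind that a sequencer gives to a single read, and 23069 of those names were distinct. The gap between the numbers lay within 50 bases of the listed transcript length for 14596 of them (63.3%). The files do not say what the numbers mean and pair no long-read transcript with a gene or a position, so transcripts are called here by their length in bases. Examples are 105:2095_3f8b4bb0-a2db-406d-a1cd-077d07621e6d, 1937 bases long, and 116:2895_0b836639-89c1-4ca3-af9a-502eeaab8ea3, 2801 bases long, which rose after both injuries. Among those that fell after both is 102:1148_d884b507-6f2a-4f4f-a1a8-74c2bcd25a61, of 980 bases.

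Gene counts summed to 60.8 ± 2.54 M in MI (mean ± SD, n = 4 libraries, as for all group values below), against 26.2 ± 1.64 in MISham, 29.5 ± 2.40 in IR and 27.3 ± 1.78 in IRSham, so MI was sequenced more deeply than the other groups. The 7 cardiomyocyte markers, led by Myh6, the main myosin heavy chain of adult mouse heart muscle, summed to 12299 to 22025 CPM (counts scaled to the library total) in MI and 13891 to 27118 in IR, against 55447 to 62568 in MISham and 60838 to 64429 in IRSham. The 5 fibroblast and matrix markers summed to 16364 to 20362 in MI and 19984 to 24433 in IR, above 1667 to 6303 in MISham and 4088 to 6198 in IRSham. The 5 macrophage markers ran from 1947 to 2975 in MI and 2284 to 4292 in IR, and from 315 to 817 in MISham and 611 to 1065 in IRSham. The 4 neutrophil markers summed to 185 to 401 in MI and 94.5 to 177 in IR, above at most 91.3 in MISham and 90.1 in IRSham. The 4 endothelial markers summed to 1162 to 1299 in MI, above 787 to 873 in MISham. In IR they summed to 795 to 1138, which overlapped 810 to 855 in IRSham. Mean CPM after each injury was higher than in its sham for Pecam1 and Cdh5, nearly level for Tek and lower for Kdr. Kdr averaged 242 CPM in MI and 328 in MISham, and 191 in IR and 298 in IRSham. The 4 skeletal muscle markers, nearly all from Ckm, which heart also expresses, summed to 165 to 286 in MI and 132 to 436 in IR, below 1126 to 1287 in MISham and 979 to 1142 in IRSham. The 4 lung markers were low throughout but summed to more after injury, 2.01 to 2.99 in MI and 1.64 to 2.89 in IR against 0.512 to 0.580 in MISham and 0.840 to 1.25 in IRSham, mostly from Ager. None of the 33 markers was at 0 in all libraries. Mitochondrially encoded genes held 2.42% of gene counts in MI and 2.59% in IR, against 7.98% in MISham and 7.00% in IRSham. In bulk tissue fewer cells of a type and less RNA per cell cannot be told apart, and the part that cell makeup, mitochondrial RNA or depth has in the changes below was not tested.

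Most long-read transcripts were scarce in the short reads. Of the 23070, 1554 were at 0 in all 16 libraries, 13947 had a mean TPM above 0 and under 1, and 7569 (32.8%) reached the mean TPM of 1 at which transcripts were tested. The same limit kept 32920 of the Ensembl transcripts (23.4%). A TPM above 0 in every library was found for 6985 long-read transcripts (30.3%), and for 5436 (71.8%) of those tested. The tested long-read transcripts had a median mean TPM of 3.26, with quartiles of 1.73 and 7.46, close to the 3.30, 1.72 and 8.45 of the tested Ensembl transcripts. The most abundant reached 36602 TPM as a mean over the 16 libraries, against 38029 for the most abundant Ensembl transcript.

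The long-read transcripts covered a narrower span of lengths than the annotation. All 23070 ran from 194 to 6261 bases with a median of 986 and quartiles of 699 and 1469, whereas Ensembl transcripts ran from 9 to 123179 bases with a median of 967. Among those tested, the median was 1118 bases for long-read and 1589 for Ensembl transcripts, and the middle 90% lay between 530 and 2808 bases and between 374 and 6275. The longest tested, of 6244 bases, had 6.82, 8.20, 7.06 and 7.78 TPM in MI 1 to 4, 4.56, 2.92, 3.95 and 4.57 in MISham, 9.92, 9.34, 6.79 and 6.81 in IR and 3.79, 5.46, 4.08 and 3.74 in IRSham. Its injured libraries were all above its sham libraries in TPM, but after each library was centred on its median the changes of 0.19 ± 0.16 (SE, log2) in MI and 0.31 ± 0.16 in IR did not pass the test (adjusted p = 0.361 and 0.149).

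Changes are given as differences in log2(TPM + 1) after each library's median over the tested transcripts was subtracted. The added 1 makes changes near 0 TPM smaller before centring. Injured libraries had higher medians than their shams by 0.58 in MI and 0.495 in IR, so a change of 0 on this scale is a rise of that size without centring. A transcript at 0 TPM in both groups would get a fall of that size. Near 0 TPM centring thus enlarges falls and reduces rises. A transcript was called when its adjusted p, over all 40489 tested transcripts, was under 0.05. The spread between libraries of a group was wider for long-read transcripts, with a median SD of 0.409 against 0.316 for Ensembl transcripts. It was wider at each abundance, with 0.438 against 0.403 at 1 to 2 TPM, 0.355 against 0.235 at 5 to 20 TPM and 0.309 against 0.207 at 100 TPM or more.

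**Figure D1:**
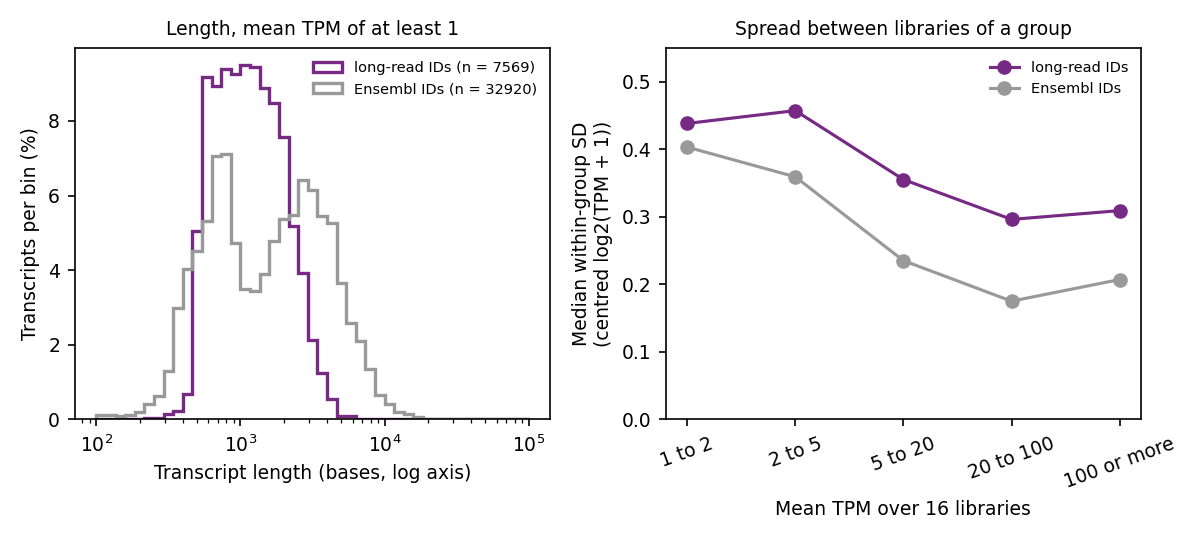
Left, length in bases on a log axis of the tested transcripts with long-read and Ensembl IDs, as the percent of each set in a bin. Right, median SD between libraries of a group in centred log2(TPM + 1) by mean TPM, which is larger for long-read transcripts in all 5 abundance classes.

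The long-read transcripts held a smaller part of the transcript pool after injury. Their share of a library's summed TPM was 24.4, 23.4, 24.8 and 25.5% in MI 1 to 4 and 30.4, 30.7, 29.9 and 30.8% in MISham, 25.3, 21.2, 24.2 and 25.3% in IR and 29.2, 31.2, 29.9 and 30.4% in IRSham. Every injured library lay below every sham library. The share fell by 5.94 percentage points in MI and by 6.19 in IR (two-sided exact permutation p = 0.0286 for each, the smallest that 4 against 4 libraries allow, and 0.0429 adjusted over 9 such tests). The sham groups, at 30.4 ± 0.382% and 30.2 ± 0.822%, differed by 0.246 points (exact permutation p = 0.657).

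The pooled fall was that of the 10 most abundant, while the others changed little as a sum. The 10 most abundant held 9.61 ± 0.721% of all TPM in MI and 8.94 ± 1.72% in IR, against 15.9 ± 0.579% in MISham and 15.6 ± 0.696% in IRSham. All other long-read transcripts together held 14.9 ± 0.346% in MI and 14.5 ± 0.470% in MISham, and 15.1 ± 0.538% in IR and 14.5 ± 0.257% in IRSham. These differences, of 0.349 and 0.517 points upward, did not pass the exact permutation test (adjusted p = 0.404 and 0.206). A sum can stay level while some of its transcripts fall and others rise. Long-read abundance was less concentrated after injury, the 100 most abundant holding 69.7% of it in MI and 67.9% in IR, against 82.1% in MISham and 81.4% in IRSham. Annotated mitochondrial transcripts, which are not among the long-read IDs, held 8.51% of TPM in MI and 9.55% in IR, and 19.5% in MISham and 17.7% in IRSham.

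**Figure D2:**
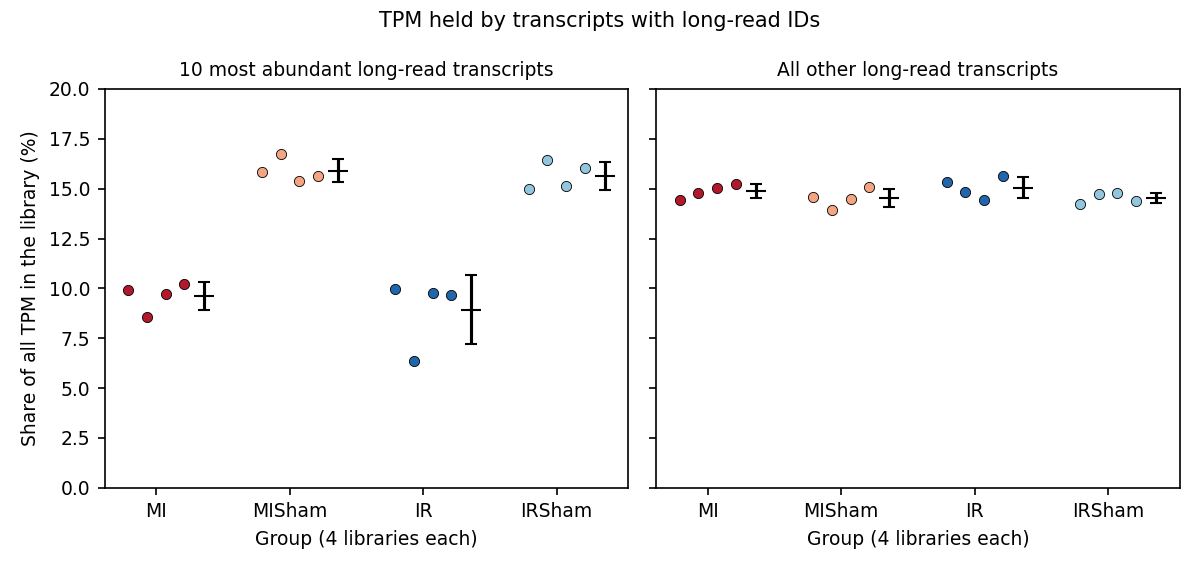
Share of each library's summed TPM (%) held by the 10 most abundant long-read transcripts (left) and by all other long-read transcripts (right). Each point is 1 library of MI, MISham, IR or IRSham, and the mean ± SD of each group is shown. On the left the injured libraries, at 6.37 to 10.2%, lie below the sham libraries, at 15.0 to 16.7%. On the right injured and sham libraries overlap.

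While the pooled share fell, more long-read transcripts passed 1 TPM after injury. The median log2(TPM + 1) over all tested transcripts was also higher after injury, by 0.58 in MI and 0.495 in IR. No matching count was made for Ensembl transcripts, so the rise is not shown to be particular to long-read ones. MI libraries had 7575, 7887, 7802 and 7670 long-read transcripts at 1 TPM or more and MISham libraries had 6340, 5906, 6287 and 6218. IR libraries had 7823, 8054, 7723 and 7784 and IRSham libraries had 6412, 6477, 6624 and 6478. The groups did not overlap, and the rises of 1546 in MI and 1348 in IR both had an exact permutation p of 0.0286 (0.0429 adjusted). The sham groups did not overlap either, MISham minus IRSham being -310.0 with the same p. On leaving out any 1 of the 4 IRSham libraries it did not pass (exact permutation, adjusted p = 0.0857). The difference was then -339 to -268, and the sham groups still did not overlap. The TPM-weighted mean length was 1025 ± 34.2 bases in MI and 1193 ± 23.5 in MISham (exact permutation p = 0.0286, adjusted 0.0429), and 1099 ± 79.2 in IR and 1181 ± 44.3 in IRSham (exact permutation p = 0.143, adjusted 0.184).

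Of the 10 most abundant long-read transcripts, 7 fell after both injuries and 3 passed no test. Among tested transcripts at 100 TPM or more, 49.1% of long-read and 44.8% of Ensembl ones were called lower in MI. In IR these shares were 48.5% and 45.0%. The 752-base transcript, the most abundant, had 16619, 15353, 22057 and 19830 TPM in MI 1 to 4 and 55151, 56321, 51639 and 55570 in MISham, 24423, 17436, 28464 and 16998 in IR and 53551, 53710, 49880 and 48640 in IRSham. Its injured libraries were all less abundant than any sham library, with changes of -2.16 ± 0.22 in MI (adjusted p = 1.8e-06) and -1.77 ± 0.22 in IR (adjusted p = 1.86e-05). The 1256-base transcript had means of 10478 ± 2044 TPM in MI against 28368 ± 3322 in MISham, and of 10027 ± 3329 in IR against 28166 ± 1076 in IRSham. It fell by 2.03 ± 0.23 and 2.04 ± 0.23 on the log2 scale. The transcripts of 1668, 1765, 1144, 632 and 521 bases fell too, and the 7 changes ran from -2.16 to -1.54 in MI and from -2.04 to -1.42 in IR, without overlap between injured and sham libraries.

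The other 3 of the 10 were the shortest, at 270, 333 and 403 bases, and followed a different course. The 270-base transcript had 22549, 16537, 12661 and 20794 TPM in MI 1 to 4 and 5127, 5124, 6245 and 10074 in MISham, 17894, 5523, 7477 and 20208 in IR and 3347, 9845, 7103 and 8629 in IRSham. In TPM its MI libraries were all above its MISham libraries, while IR and IRSham overlapped, IR 1 and IR 4 being far above IR 2 and IR 3. Its centred changes of 0.89 ± 0.45 and 0.23 ± 0.45 did not pass the test (adjusted p = 0.125 and 0.729). The 333-base transcript had a mean of 14235 TPM in MI and 5810 in MISham with a change of 0.72 ± 0.35 (adjusted p = 0.106), and the 403-base transcript 8932 and 3494 with 0.79 ± 0.35 (adjusted p = 0.0771). In all 3, IR 4 was the highest IR library, MISham 4 the highest MISham library and IRSham 1 the lowest IRSham library.

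**Figure D3:**
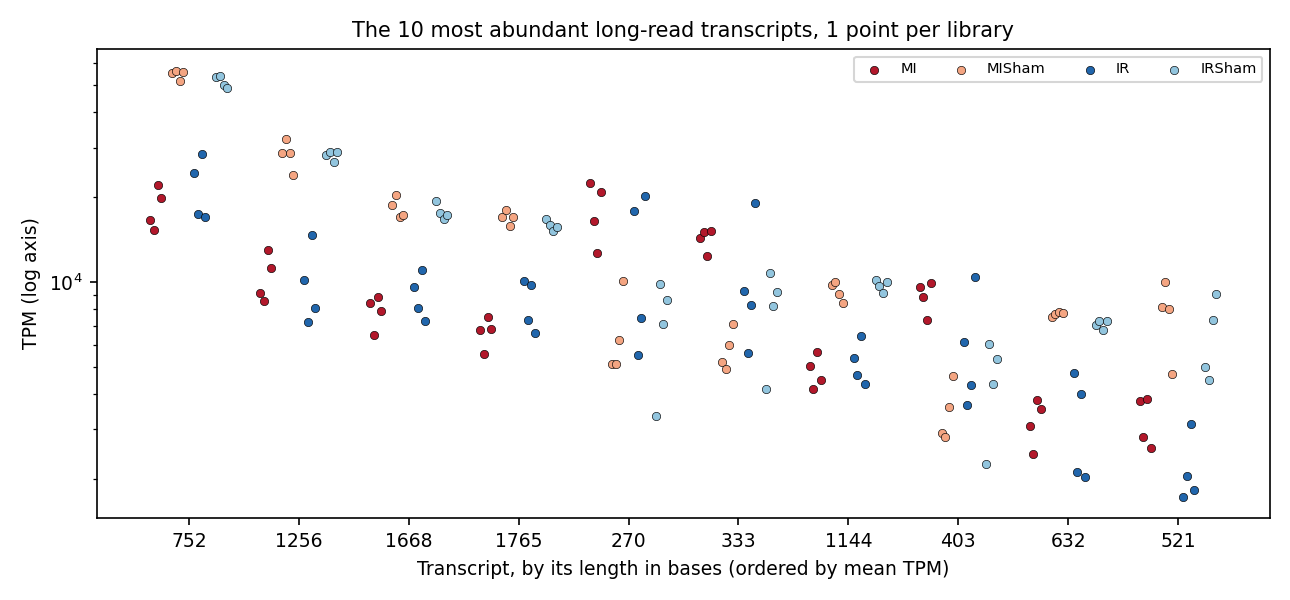
TPM on a log axis of the 10 most abundant long-read transcripts, named by length in bases and ordered by mean TPM, with 1 point per library. The transcripts of 270, 333 and 403 bases are higher in MI than in MISham in TPM, and the other 7 are lower in all injured than in all sham libraries.

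After MI, 3203 of the 7569 tested long-read transcripts (42.3%) were called, where 44.5% of all tested transcripts were. Of these, 1381 (18.2%) were higher, against 22.6% of all tested, and 1822 (24.1%) were lower, against 21.9%. Rises of at least 1 on the log2 scale were called for 791 (10.5%), against 10.7% of all tested, and falls of that size for 1228 (16.2%), against 11.6%. Higher transcripts were thus 43.1% of the calls among long-read and 52.4% among Ensembl transcripts. Without centring the split turned, and 3119 long-read transcripts were called higher and 995 lower, a share of 75.8% higher. The split turned alike over all tested transcripts, where 82.9% of uncentred calls were higher, and 59.0% of all tested were then called against 54.4% of the long-read ones. The median change was -0.05 over the long-read transcripts and 0.02 over all tested.

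After IR, 2844 (37.6%) were called, against 39.1% of all tested transcripts. The 1205 higher (15.9%) stood beside 18.6% of all tested and the 1639 lower (21.7%) beside 20.5%. Rises of at least 1 were called for 657 (8.68%), against 7.7% of all tested, and falls of that size for 997 (13.2%), against 9.89%. Higher transcripts were 42.4% of the calls among long-read and 48.8% among Ensembl transcripts, and without centring 77.0% of long-read calls, with 2758 higher and 824 lower, and 82.1% of the calls over all tested. The median change was -0.06 over the long-read transcripts and -0.01 over all tested.

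Calls grew with abundance and, less steeply, with length. In MI, 6.97% of the 2380 long-read transcripts at 1 to 2 TPM were called higher and 18.7% lower, and of the 171 at 100 TPM or more 36.8% were called higher and 49.1% lower. The Ensembl transcripts grew alike, from 9.35% higher and 15.5% lower at 1 to 2 TPM to 41.0% and 44.8% at 100 TPM or more. The part that centring has in the lower calls at 1 to 2 TPM was not tested. Long-read transcripts of 500 to under 1000 bases, the largest length class with 3066, had 14.9% higher and 22.3% lower, and the 1264 of 2000 bases or more had 23.9% and 26.4%. In the same length classes the Ensembl transcripts had 16.1% higher and 18.1% lower, and 29.9% and 25.3%. The long-read median abundance was 2.81 TPM in the shorter class and 4.25 TPM in the longer, so length and abundance moved together.

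The 10 largest rises and falls of each injury were taken from called transcripts whose centred injured and sham values did not overlap. In MI 1191 tested long-read transcripts (15.7%) met this rule as higher, against 21.4% of Ensembl ones. As lower, 1608 (21.2%) did, against 19.4%. In IR 905 (12%) met it as higher, against 15.8%, and 1303 (17.2%) as lower, against 16.8%. Lack of overlap in the injury that chose a transcript is thus part of the choice and not a finding. The transcripts of 1937, 2801, 3437 and 1379 bases were each among the 10 largest rises of both injuries. The 1937-base transcript had 71.8, 77.7, 37.3 and 59.1 TPM in MI 1 to 4 and 1.85, 0.128, 1.68 and 0.206 in MISham, 91.4, 232, 41.6 and 156 in IR and 3.43, 2.23, 6.57 and 3.70 in IRSham. Every injured library exceeded every sham library in TPM, and within each injury the choice required such a separation. The rises were 4.49 ± 0.45 in MI (adjusted p = 1.63e-06) and 4.03 ± 0.45 in IR (adjusted p = 8.11e-06).

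The 2801-base transcript was likewise scarce in sham tissue. It had 65.1, 82.6, 56.3 and 81.7 TPM in MI and 1.61, 0.116, 4.83 and 1.22 in MISham, 79.0, 76.7, 42.9 and 59.1 in IR and 1.88, 2.64, 3.85 and 3.08 in IRSham. Injured and sham libraries were far apart, again as the choice required, with rises of 4.27 ± 0.36 (adjusted p = 4.32e-07) and 3.57 ± 0.36 (adjusted p = 4.05e-06). The 3437-base transcript averaged 93.9 ± 23.5 TPM in MI and 1.99 ± 1.94 in MISham, and 123 ± 58.5 in IR and 5.51 ± 5.15 in IRSham. The 1379-base transcript was at 0 in 3 MISham and 3 IRSham libraries and averaged 18.0 ± 1.05 TPM in MI and 22.8 ± 13.3 in IR. The 5698-base transcript, the longest of the leading rises, averaged 88.5 TPM in MI and 6.19 in MISham (3.43, adjusted p = 2.33e-05), and 87.4 in IR and 9.53 in IRSham (2.61, adjusted p = 0.00037).

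The transcripts of 994, 928, 550 and 940 bases had unequal fitted changes in the injuries, but the difference between injuries was not called for any of the 4. The 994-base transcript, with the largest rise in MI, averaged 336 ± 122 TPM against 11.7 ± 11.1 in MISham (4.82 ± 0.71, adjusted p = 5.32e-05), and 363 ± 222 in IR against 32.3 ± 12.8 in IRSham (2.85 ± 0.71, adjusted p = 0.00485). The 928-base transcript, with the largest rise in IR, had 379, 705, 152 and 460 TPM in IR 1 to 4 and 9.0, 10.1, 8.61 and 4.47 in IRSham, a change of 4.91 ± 0.56 (adjusted p = 1.08e-05), and rose by 3.37 ± 0.56 in MI (adjusted p = 0.000174). The 550-base transcript had 226, 124, 172 and 211 TPM in MI and 6.28, 12.8, 17.3 and 0.0388 in MISham, but 31.5 in IR 1 and at most 8.43 in the other IR libraries. It was abundant in MI alone, with a rise of 4.18 ± 1.13 (adjusted p = 0.00722) and an IR change of -1.0 ± 1.13 (adjusted p = 0.526), yet the difference between injuries of 5.18 ± 1.6 did not pass the test (adjusted p = 0.262). Of the 10 largest rises of MI, 9 were also called in IR, and of the 10 largest of IR, 9 were also called in MI. The 940-base transcript, called in IR only, changed by 1.47 in MI (adjusted p = 0.174).

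Among the falls, the 553-base transcript was at 0 in all 8 injured libraries. It had 10.6, 28.9, 3.87 and 39.1 TPM in MISham 1 to 4 and 8.07, 15.5, 11.4 and 5.12 in IRSham. All sham libraries held it, and the fitted changes were -4.59 ± 0.52 in MI (adjusted p = 4.96e-06) and -3.86 ± 0.52 in IR (adjusted p = 3.81e-05). The 801-base transcript had 8.82, 14.7, 8.6 and 10.8 TPM in MISham and 14.1, 12.2, 5.92 and 10.9 in IRSham, and at most 0.488 in MI and 0.507 in IR. Its changes were -3.87 ± 0.25 (adjusted p = 1.12e-07) and -3.71 ± 0.25 (adjusted p = 8.12e-07).

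The remaining large falls of IR were mostly shared with MI. The 2579-base transcript averaged 2.56 ± 0.910 TPM in MI and 47.1 ± 26.6 in MISham, and 1.74 ± 1.39 in IR and 32.5 ± 21.4 in IRSham, with changes of -4.19 ± 0.55 and -4.03 ± 0.55. The 2103-base transcript was at 0 in all MI libraries and at most 0.000256 TPM in IR, and had 5.79 to 23.0 TPM in IRSham but 0.00767 to 8.81 in MISham. The 217-base transcript, the shortest tested, had 93.3, 83.1, 65.1 and 82.6 TPM in MISham, 5.43, 7.58, 14.7 and 3.07 in MI, 56.5, 71.7, 52.1 and 81.0 in IRSham and 9.28, 4.44, 35.2 and 0 in IR. Its sham libraries all exceeded its injured ones, which its choice as a large fall of IR fixed for IR but not for MI. It fell by 3.98 ± 0.76 in MI and changed by -3.78 ± 0.76 in IR. The 3099-base transcript, more abundant than these, had 770, 467, 568 and 634 TPM in IRSham and 43.5, 48.8, 253 and 14.7 in IR, and 517, 554, 495 and 181 in MISham and 106, 135, 300 and 169 in MI. IR and IRSham did not overlap, as its choice by IR required (-3.96 ± 0.63, adjusted p = 0.000164). In MI, which did not choose it, MISham 4 lay within the MI range. The MI change of -1.86 ± 0.63 (adjusted p = 0.0258) was not called without MI 1, MI 2, MISham 1, MISham 2 or MISham 3. Of the 10 largest falls of IR, 8 were also called in MI.

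The largest falls of MI were mostly not called in IR. Only 2 of the 10, those of 553 and 980 bases, were called in both. The 980-base transcript had 24.8, 33.1, 25.4 and 34.3 TPM in MISham and 0, 2.16, 2.15 and 0.990 in MI, and 28.3, 26.1, 26.1 and 13.1 in IRSham and 2.93, 1.82, 4.68 and 0 in IR. Its lowest sham library was IRSham 4, still above every injured library, and the changes were -4.41 ± 0.48 and -3.55 ± 0.48. The 691-base transcript had 148, 140, 103 and 259 TPM in MISham 1 to 4 and 0.490, 0, 1.23 and 0 in MI, 166, 744, 529 and 717 in IR and 292, 215, 216 and 0.000103 in IRSham. It was nearly missing from MI and from IRSham 4, and abundant in all other libraries. The MI change was -7.42 ± 1.34 (adjusted p = 0.000347), the IR change 2.44 ± 1.34 (adjusted p = 0.17), and the difference between them, -9.86 ± 1.89, did not pass the test (adjusted p = 0.0729). The 8 of these 10 that were not called in IR had IR changes from -2.12 to 2.44, and the difference between injuries was called for none of them (adjusted p = 0.0729 to 0.65).

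A few transcripts were at 0 in every library of one group and at 1 TPM or more in every library of the other, and those named in this paragraph were chosen after their values were seen. In MI 17 long-read transcripts were at 0 in MISham and present in MI, and 5 were at 0 in MI and present in MISham. In IR the counts were 3 and 2. As shares of all long-read transcripts these are 0.0737% and 0.0217% in MI and 0.013% and 0.00867% in IR. Among Ensembl transcripts the counts were 123 (0.0874%) and 5 (0.00355%) in MI and 29 (0.0206%) and 12 (0.00853%) in IR. The 1378-base transcript was at 0 in all 8 sham libraries, and had 4.02, 7.05, 1.57 and 4.49 TPM in MI 1 to 4 and 2.53, 5.00, 2.67 and 5.71 in IR. The 1239-base transcript was at 0 in MISham and had 22.3, 13.0, 7.02 and 11.4 TPM in MI.

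The comparisons of MI and of IR with their shams share no libraries. Both use 1 spread per transcript and 1 abundance limit taken over all 16 libraries, so their calls are not independent. Higher in both were 885, which is 64.1% of those higher in MI and 73.4% of those higher in IR. Lower in both were 1337, or 73.4% and 81.6%. Among Ensembl transcripts the same shares were 68.5% and 83.8% for higher and 75.7% and 80.4% for lower calls. Opposite calls were made for 11, of which 5 were higher in MI and lower in IR, and the difference between injuries was called for 1 of the 11, the 1198-base transcript. The opposite calls were 0.362% of those higher in MI and 0.329% of those lower in MI. Among Ensembl transcripts these shares were 0.206% and 0.156%. Across the 7569 transcripts the changes had a Pearson r of 0.76 and a Spearman rho of 0.752, given as a description since transcripts of a gene share reads and are not independent, and the Ensembl transcripts had 0.778 and 0.767.

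Reading each set in the injury that did not choose it gave the same order in every library. The 1381 transcripts called higher in MI had a mean centred log2(TPM + 1) of 1.24, 1.42, 1.18 and 1.39 in IR 1 to 4 and of 0.305, 0.481, 0.452 and 0.468 in IRSham. The 1822 called lower in MI had means of 0.485, 0.0413, 0.421 and 0.059 in IR and of 1.37, 1.31, 1.30 and 1.25 in IRSham. IR and IRSham libraries did not overlap in either set, and IR 2 and IR 4 were lowest in the second. The 1205 called higher in IR had means of 1.26 to 1.43 in MI and 0.104 to 0.398 in MISham, and the 1639 called lower in IR had 0.0403 to 0.413 in MI and 1.39 to 1.54 in MISham.

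**Figure D4:**
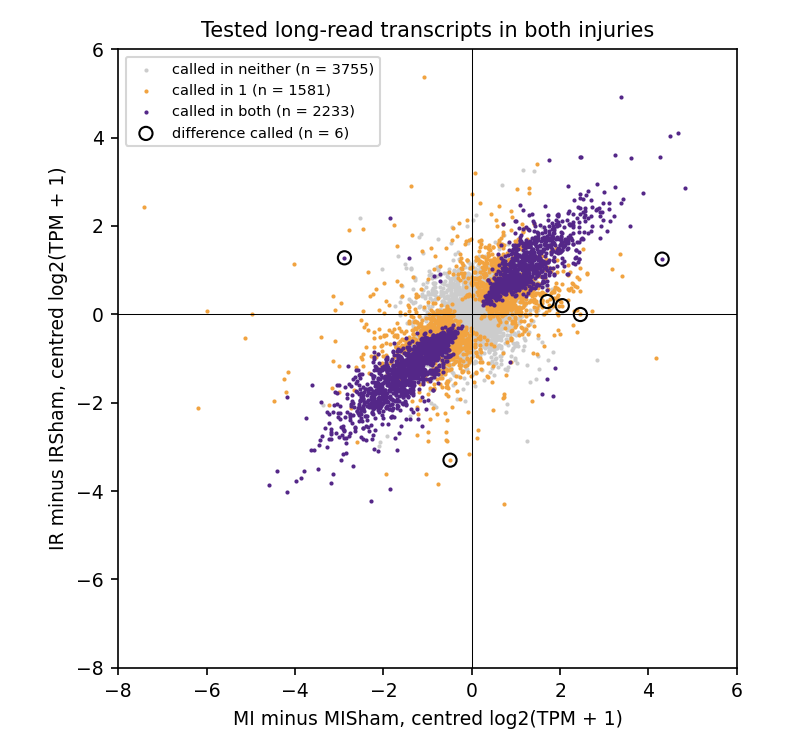
Change in MI (horizontal) against change in IR (vertical) in centred log2(TPM + 1) for the 7569 tested long-read transcripts, coloured by whether they were called in neither, 1 or both. Most transcripts called in both lie where the signs of both changes match, and the 6 whose responses differed are circled.

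The responses to MI and IR differed for 6 long-read transcripts (0.0793% of those tested, against 0.0617% of all tested), and 773 had an unadjusted p under 0.05, where 10.9% of all tested did. The count was 12 without IR 1 (0.159%, against 0.161% of all tested) and 10 without IR 2 (0.132%, against 0.0667%). It was 19 without IR 3 (0.251%, against 0.198%), and 3 without MI 4 or MISham 4 (0.0396%, against 0.0346% and 0.0321%). The 958-base transcript had 366, 410, 357 and 355 TPM in MI 1 to 4 and 57.9, 28.1, 47.6 and 50.1 in MISham, 285, 332, 361 and 318 in IR and 159, 226, 223 and 347 in IRSham. MISham alone was low, and IRSham overlapped IR. It rose by 2.46 ± 0.21 in MI and changed by 0.00 ± 0.21 in IR, a difference of 2.46 ± 0.30 (adjusted p = 0.00562).

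The sham groups also set apart the transcripts of 742 and 1198 bases. The 742-base transcript had 37.2, 19.8, 42.8 and 37.7 TPM in MI and 0, 0, 0.752 and 0 in MISham, 22.8, 50.9, 16.9 and 35.2 in IR and 8.81, 7.96, 5.56 and 10.0 in IRSham. It rose in both injuries, by 4.31 ± 0.31 and 1.25 ± 0.31, and the difference of 3.06 ± 0.44 was called (adjusted p = 0.0195). It was not called when MI 4, MISham 4 or IRSham 4 was left out.

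The 1198-base transcript had 0, 4.74, 0 and 1.83 TPM in MI and 13.5, 7.27, 9.90 and 6.30 in MISham, 3.34, 5.51, 1.65 and 3.54 in IR and 0.269, 0.761, 0 and 0.101 in IRSham. It fell by 2.88 ± 0.46 in MI (adjusted p = 0.00013) and rose by 1.28 ± 0.46 in IR (adjusted p = 0.0403), the only one of the 11 opposite calls whose difference was called (-4.16 ± 0.66, adjusted p = 0.0354). The difference was no longer called in 12 of 16 fits that each left out 1 library, the exceptions being IR 1, IR 3, IRSham 2 and MI 2, and the IR call was lost without IR 1, IR 2, IR 4, IRSham 1, IRSham 3 or IRSham 4.

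The 1282-base transcript was near 0 in IR alone. It had 0.0794, 0, 0 and 0.000105 TPM in IR 1 to 4, 10.5, 5.69, 5.58 and 4.08 in IRSham, 6.17, 4.55, 7.25 and 3.97 in MI and 6.15, 4.85, 5.15 and 3.96 in MISham. All 12 libraries outside IR held it at 3.96 TPM or more. It fell by 3.30 ± 0.22 in IR (adjusted p = 8e-07) and changed by -0.49 ± 0.22 in MI (adjusted p = 0.0862), a difference of 2.81 ± 0.31 (adjusted p = 0.00454).

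The other two, of 763 and 521 bases, were named after their values were seen, and the latter is not the 521-base transcript among the 10 most abundant. The 763-base transcript had 238, 190, 180 and 141 TPM in MI and 38.2, 23.0, 37.6 and 21.2 in MISham, 58.9, 96.4, 86.7 and 62.8 in IR and 43.4, 44.7, 47.1 and 48.2 in IRSham. The less abundant 521-base transcript had 1105, 659, 690 and 813 TPM in MI and 181, 168, 174 and 132 in MISham, 348, 409, 341 and 354 in IR and 213, 217, 180 and 230 in IRSham. In TPM injured libraries were above sham libraries for both, by more in MI. The centred rises in MI were 2.05 ± 0.18 and 1.71 ± 0.15, the changes in IR of 0.20 ± 0.18 and 0.29 ± 0.15 did not pass the test, and the differences were 1.85 ± 0.26 (adjusted p = 0.0147) and 1.42 ± 0.21 (adjusted p = 0.0198).

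**Figure D5:**
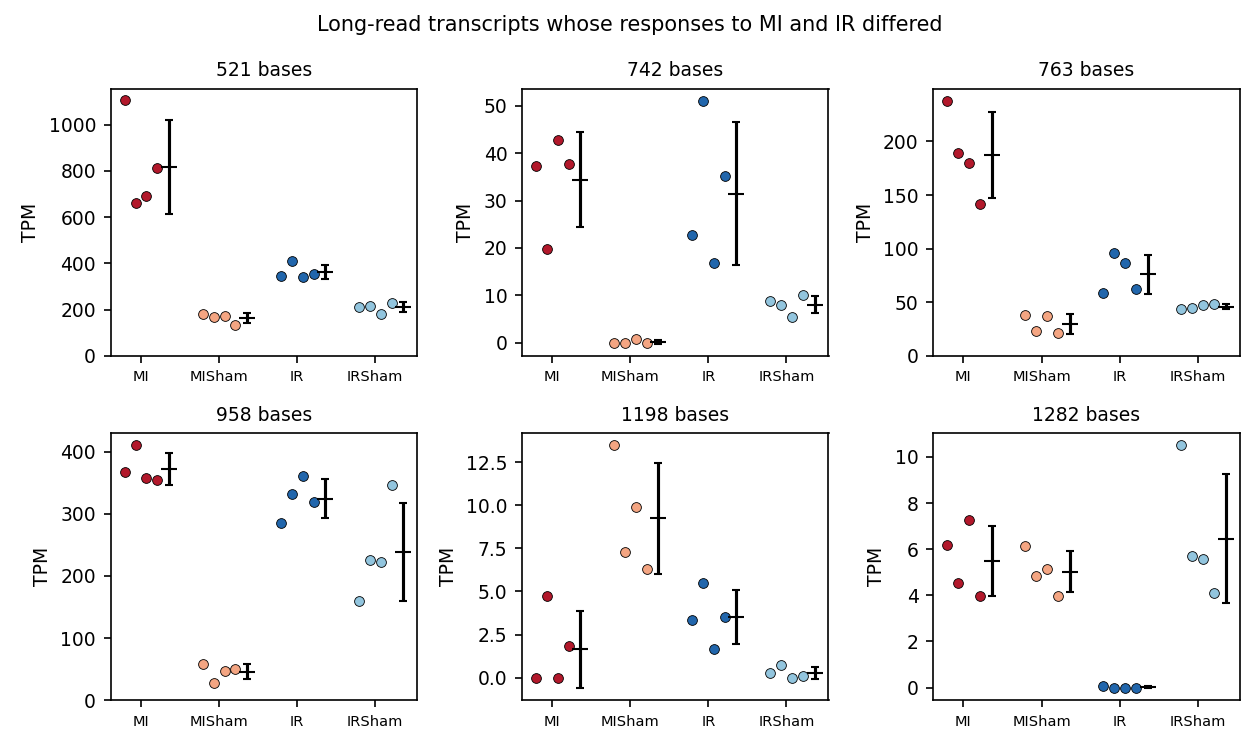
TPM of the 6 long-read transcripts whose responses to MI and IR differed, 1 panel per transcript named by length in bases and 1 point per library. The 1282-base transcript is near 0 in the 4 IR libraries only, and the 742- and 958-base transcripts are lower in MISham than in IRSham.

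Between the sham groups 3 long-read transcripts were called (0.0396%, against 0.0321% of all tested), and 578 had an unadjusted p under 0.05, where 7.31% of all tested did. They were those of 742 bases, lower in MISham (-2.87 ± 0.31, adjusted p = 0.0022), 958 bases, also lower in MISham (-2.25 ± 0.21, adjusted p = 0.000723), and 1198 bases, higher in MISham (3.07 ± 0.46, adjusted p = 0.0456), whose call was lost on leaving out any 1 of the 8 sham libraries. All 3 were thus also among the 6 transcripts whose responses differed, and the difference of the responses is computed from the same sham libraries.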

How the data were processed

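The authors deposited transcript TPM for 16 short-read libraries, with a length in bases per transcript, and a table of gene counts, used here for depth and markers. Per the submitters' processing notes, kallisto 0.50.1, featureCounts 2.0.1, SAMtools 1.7, HISAT2 2.2.1 and GRCm39 were used; their roles, the annotation release and the strand setting are not given in the sources used here. TPM keeps no depth, and the 2 table columns that name no sample were not used. The 4 long-read libraries have no values in the tables and were not analysed here. Symbols of 52080 of 63318 genes came from GENCODE by ID, and no coordinates were used.

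Transcripts averaging 1 TPM or more entered the test, on log2(TPM + 1) with limma 3.58.1 (trend) in R 4.3.3, each library being centred on its median, with 1 mean per group and Benjamini-Hochberg adjustment over 40489 transcripts. The code was tested on simulated data. Library measures were compared by two-sided exact permutation tests in Python 3.11.15 with NumPy 2.4.6. Replicate numbers did not pair the libraries. The transcripts named are the 10 most abundant, the 10 largest called rises and falls without overlap per injury, up to 3 differences each way, the longest and the shortest. Alternatives varied the pseudocount, filter, centring, trend, block, groups and libraries. The transcript set, the marker lists and these rules were chosen with earlier results of these data known.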

Additional observations from a re-analysis of the deposited data

Results flagged for a closer look

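The responses to MI and IR differed, by a test of the difference itself (limma, adjusted p under 0.05), for 6 long-read transcripts. The difference, MI response minus IR response in centred log2(TPM + 1), was 3.06 for the 742-base, 2.81 for the 1282-base, 2.46 for the 958-base, 1.85 for the 763-base, 1.42 for the less abundant 521-base and -4.16 for the 1198-base transcript.

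Among the named transcripts, 1 library stood apart from the other 3 of its group in 19 of 196 groups by Dixon's criterion. The rate of about 1 in 20 by chance holds for normally distributed values. A group at 0 in 3 libraries always passes the criterion when the other library is above 0. Many of the transcripts were also chosen for large changes, so 19 is not shown to be an excess. High single values were 0.752 TPM (742 bases), 4.32 TPM (545 bases), 0.162 TPM (1379 bases) and 8.07 TPM (1369 bases) in MISham 3, and 18.7 TPM (928 bases) in MISham 1. In IRSham 3 they were 1.38 TPM (1379 bases) and 60.3 TPM (775 bases). In MI 3 they were 1.58 TPM (1045 bases), 10.9 TPM (554 bases) and 0.488 TPM (801 bases), and in MI 2 12.7 TPM (940 bases). In IR 1 they were 101 TPM (642 bases), 1.08 TPM (554 bases) and 0.0794 TPM (1282 bases), and in IR 3 253 TPM (3099 bases) and 0.000256 TPM (2103 bases). Low single values were 13.1 TPM (980 bases) and 1.86 TPM (1374 bases) in IRSham 4 and 181 TPM (3099 bases) in MISham 4. The 642-base transcript, at 0 in the other 3 IR libraries, had 101 TPM in IR 1 alone.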

How the results depend on the processing

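TPM without depth, reads shared among similar transcripts and 4 libraries per group limit these results. Below, a pair of percents in brackets is the called share of tested long-read and of all tested transcripts. Without a filter on low values, MI calls were 2529 higher and 6138 lower (40.3% and 45%). IR calls were 2412 and 4050 (30% and 35.6%). At a mean TPM of at least 0.1, MI lower calls were 3083 (30.9% and 31.4% called either way). At 5 or more, calls were 790 and 907 in MI (63.4% and 68.1%) and 711 and 833 in IR (57.7% and 62.4%). The difference of responses then had 12 (0.448% and 0.431%). Without centring the calls were 3119 and 995 in MI (54.4% and 59%) and 2758 and 824 in IR (47.3% and 51.7%). Leaving out IR 1 and IR 3 together gave 32 differences (0.423% and 0.351%). Leaving out MISham 1 and MISham 3 gave 19 (0.251% and 0.328%), with 24 calls between shams (0.317% and 0.309%). A pseudocount of 0.1 gave 5 calls between shams (0.0661% and 0.0766%). Without the 10 most abundant transcripts, an alternative chosen after seeing the data, the share changes turned to 0.349 in MI and 0.517 in IR, and the length change in IR was -135.5 bases and passed the test. At 5 TPM the count differences of 863.25 in MI and 879.75 in IR had an adjusted p of 0.0514 each (exact permutation). That of -68.25 between shams had 0.404. The 9 library tests were adjusted together, so the adjusted values in MI and IR also depend on the sham test. Leaving out 1 library at a time gave 1209 to 1323 higher and 1616 to 1764 lower calls in MI. It gave 999 to 1284 and 1438 to 1635 in IR, 3 to 19 differences and 2 to 3 calls between shams. The called share was then 37.3 to 40.5% of long-read and 39.5 to 42.7% of all tested transcripts in MI. In IR it was 32.4 to 37.8% and 34.1 to 39.1%. The share of TPM then changed by -6.27 to -5.57 points in MI, -6.64 to -5.26 in IR and -0.0697 to 0.579 between shams. The count changed by 1452 to 1599, 1279 to 1390 and -360.75 to -216.1. The length changed by -184.5 to -158.5, -103.8 to -45.1 and 0.886 to 33.9 bases. With 3 against 4 libraries the exact permutation p can reach 0.0286. The count between shams lost its call without any 1 IRSham library (exact permutation, adjusted p = 0.0857), though the sham groups still did not overlap. Libraries with the same replicate number did not deviate together (correlations of -0.0814 to 0.123). With the replicate block the calls were 1359 and 1780 in MI (41.5% and 43.5%) and 1181 and 1575 in IR (36.4% and 37.8%). They were 6 for the difference (0.0793% and 0.0617%) and 3 between shams (0.0396% and 0.0321%). Of 2014 values of named transcripts under alternatives, 1924 kept direction and call, 61 lost and 29 gained the call, and 0 changed sign as a call. Besides the transcripts of 742 and 1198 bases, single libraries ended the MI calls of the 1313-base (1.74) and 3099-base (-1.86) transcripts and the IR call of the 1578-base transcript (1.99).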
